A study of Mus musculus with 18 samples.

Results

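The cytosolic ribosomal protein genes of mouse liver were followed over 24 h. They were taken from a table of 14451 genes as the rows whose symbol starts with Rpl, Rplp or Rps followed by a number, which left out the Rps6k kinases and rows named as pseudogenes. The rule found 79 genes, 48 of the large (60S) and 31 of the small (40S) ribosomal subunit, and the description column of the table named a ribosomal protein for all 79. Gene expression had been measured by RNA sequencing in 18 livers of wild-type (WT) male mice, 8 to 9 weeks old, kept in 12 h of light and 12 h of dark without any treatment, with 3 livers taken every 4 h from zeitgeber time (ZT) 1 to ZT21, where ZT0 is lights on and ZT12 lights off. Each liver came from its own mouse, and the 3 of each time point were chosen among 5 by RNA quality. By 12 clock genes, 17 livers were nearest to the other livers of their own time point, and replicate 3 of ZT5 was nearest to ZT9. Without it, 11 members (13.9%, against 32.6% of all genes in that fit) were called rhythmic in place of the 22 given below. The mice are a cross-section, since no animal was sampled more than once, and in whole liver fewer cells of a type and less RNA per cell cannot be told apart.

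A ribosome holds about one copy of each of these proteins, and their messages share a control of translation. Most of them start with a run of pyrimidines, the terminal oligopyrimidine (TOP) motif, through which the kinase mTORC1, active when nutrients and insulin are high, and the RNA-binding protein LARP1 set how many of them are translated. Mice eat mainly in the dark, and the liver is known to make more ribosomes in the active phase. The deposited values measure the messages and not their translation. They are on a linear scale of about reads per 1000000, and values of different genes can only be compared per kilobase of transcript.

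The start sites of a few of the genes are shown because the TOP motif is what the family is known to share apart from its name. Each window runs from 15 bases before the annotated start to 15 bases from it onward, and capitals mark, of the runs that begin with C and continue with at least 4 bases that are each C or T, the one that begins nearest to the start. Other runs of this kind in a window are in lower case, and pyrimidines just before the start may continue into the marked letters. Sequences and starts are those of RefSeq on GRCm38.p6, in which 59 of the 79 genes were matched by symbol. The genes called rhythmic below that had such a run at the exact start were Rps18 (chr17:33955651-33955680, minus strand), Rps21 (chr2:180257364-180257393, plus), Rps27 (chr3:90213634-90213663, minus) and Rpl35a (chr16:33056467-33056496, plus). Rps6 (chr4:86857353-86857382, minus) and Rplp2 (chr7:141447636-141447665, plus) had it without being called, and the paralogue-like genes Rps27l (chr9:66946071-66946100, plus), Rpl22l1 (chr3:28805493-28805522, plus) and Rpl7l1 (chr17:46782642-46782671, minus) are given for comparison.
Rps18: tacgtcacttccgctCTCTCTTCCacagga
Rps21: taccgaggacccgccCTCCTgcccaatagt
Rps27: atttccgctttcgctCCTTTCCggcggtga
Rpl35a: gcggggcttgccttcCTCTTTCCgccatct
Rps6: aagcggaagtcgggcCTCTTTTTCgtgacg
Rplp2: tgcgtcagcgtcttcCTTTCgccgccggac
Rps27l: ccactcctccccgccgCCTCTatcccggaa
Rpl22l1: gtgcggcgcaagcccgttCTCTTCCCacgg
Rpl7l1: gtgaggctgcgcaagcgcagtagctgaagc
In the counts that follow, a gene with several annotated starts counts as having a feature if any of its starts has it. Rpl35a has 3 annotated starts, and Rps21 and Rps27l have 2 each, of which 1 is shown. The C of such a run stood at the exact start in 13 of the 59 matched genes (22.0%) and in 2.99% of the 10326 matched genes of the whole table. Within 10 bases of the start it was found in 36 of the 59 (61.0%) against 37.5% of all. It stood at the exact start in 4 of 19 matched rhythmic genes and in 9 of 40 of the rest of the family. Rpl7l1 had no such run in its window, Rps27l had one a base after the start, and Rpl22l1 one 3 bases after it. In the 250 bases before the start, on both strands, CCGGAAG was found in 17 of 59 (28.8%) against 14.8% of all, TATAAA in 4 (6.78%) against 8.57% and GGGCGG in 31 (52.5%) against 60.8%. AAGATGGC, searched also in the 50 bases after the start, was in 6 (10.2%) against 5.06%. These are matches of letters in annotated windows and not measured sites.

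Between 123310 and 279139 estimated reads of a liver fell on the 79 genes, out of 10268168 to 23242842, if the lowest value of each liver stands for 0 reads plus a constant of 0.5. The family took 1.17% ± 0.0633 (SD, n = 3) of the total at ZT1, 1.24% ± 0.0715 at ZT5, 1.19% ± 0.0392 at ZT9, 1.30% ± 0.0987 at ZT13, 1.28% ± 0.0265 at ZT17 and 1.23% ± 0.0341 at ZT21. Single livers lay between 1.10% and 1.41%, and the light and dark time points overlapped. The total includes the genes of the mitochondrial genome, which took 7.20% to 10.1% of it. With these left out of the total, the mean share was 1.29% at ZT1, 1.35% at ZT5, 1.29% at ZT9, 1.42% at ZT13, 1.42% at ZT17 and 1.36% at ZT21. All 79 genes were above the lowest value of the table in at least 1 liver, with means over the livers from 9.10 for Rpl27 to 476 for Rps2. Per kilobase, the median of the family was 204. The highest levels per kilobase were those of Rplp1 (503), a protein of the stalk that recruits elongation factors, Rps2 (494), at the channel where the mRNA enters, and Rps18 (358), in the head of the small subunit. Rpl27 (14.8), Rps20 (28.4) and Rpl35 (31.9) were lowest, of which Rpl27 and Rpl35 have near-identical copies described below. These ranks depend on the transcript whose length is used. With the longest transcript of each gene Rplp1 (503) and Rps2 (435) stayed highest and Rpl27 (12.4) lowest, but Rps18 fell to 174, below Rps3a1 (312), and Rps15a (14.6), Rpl22l1 (16.5) and Rpl7l1 (24.7) lay below Rps20.

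The median of the family was higher at ZT13 and ZT17 than in the light, by a small amount that depended on the scaling described below, and near its mean at ZT21. Each liver was summarized by the median over the 79 genes of the log2 difference from the gene's own mean. This median was -0.16, 0.01 and -0.01 in the livers of ZT1, 0.01, -0.11 and -0.10 at ZT5, and -0.13, -0.05 and -0.11 at ZT9. It was 0.20, 0.06 and 0.07 at ZT13, 0.07, 0.19 and 0.10 at ZT17, and 0.14, -0.03 and -0.09 at ZT21. On the deposited scaling, all 6 livers of ZT13 and ZT17 were above all 9 livers of the light phase, while the livers of ZT21 spread over both. The lowest liver was replicate 1 of ZT1 and the highest replicate 1 of ZT13. As a share of each liver's total the separation was lost. The family took 1.32% in replicate 1 of ZT5, against 1.21% in replicate 2 of ZT13 and 1.25% in replicate 1 of ZT17. The summed value of the family was 11979 ± 776 (SD, n = 3) at ZT1, 11611 ± 319 at ZT9 and 13437 ± 532 at ZT17. The mean level was highest at ZT17 in 43 genes and at ZT13 in 30, and lowest at ZT9 in 44.

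**Figure D1:**
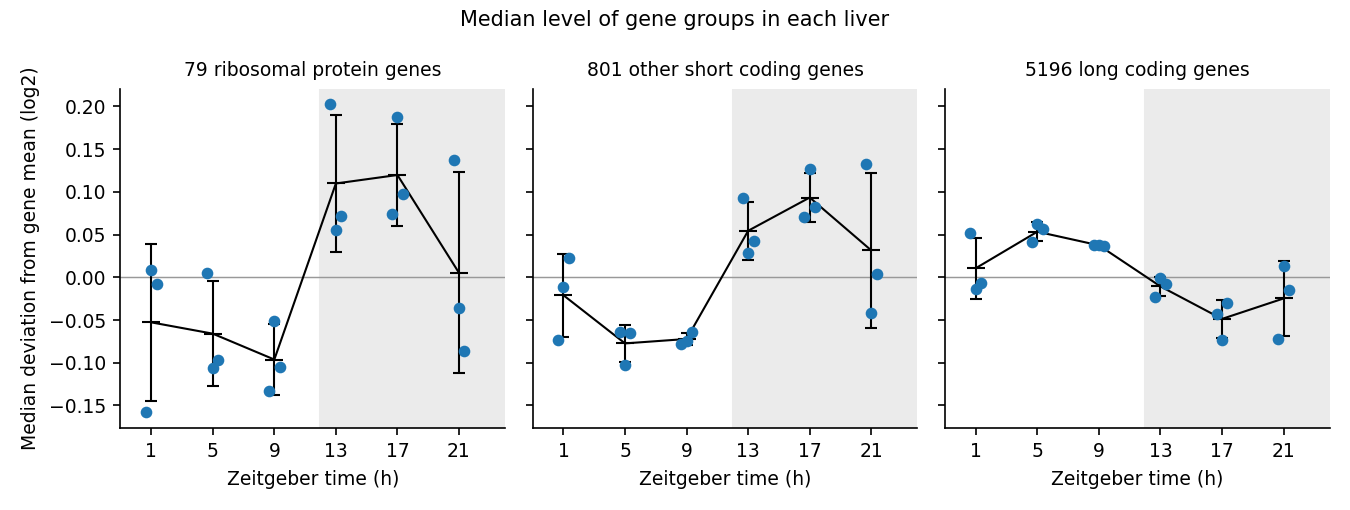
Median over the genes of a group of the log2 difference from each gene's mean (y axis, log2) against zeitgeber time (x axis, h; grey marks the dark phase), for the 79 ribosomal protein genes, 801 other protein-coding genes with a transcript under 1000 bases and 5196 with one of 3000 bases and more. Points are livers, bars the mean ± SD of 3 livers; the family rises to 0.12 at ZT17, the other short genes to 0.09, and the long genes fall to -0.05.

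The log2(value + 1) of every gene was described by a 24 h cosine in limma, which borrows information on the spread from all 14449 genes tested. Genes with a Benjamini–Hochberg adjusted P-value below 0.05 over all of them were called rhythmic. The size of a rhythm is given as the fitted difference between peak and trough on the log2 scale. Of the 79 genes, 22 were called, 13 of the large and 9 of the small subunit, which is 27.8% against 35.3% of all genes tested. When a liver was left out, the count moved between 5 and 30. It was 5 (6.33%, against 32.1% of all genes) without replicate 2 of ZT17. Without replicate 1 of ZT5 it was 30 (38%, against 33.5%). At an unadjusted limma P-value below 0.05, 45 members passed, which is 57.0% against 46.7% of all genes. Whether the share of members lay above or below that of the table thus depended on the threshold. At the adjusted threshold, 39.1% of genes with a mean of at least 1 were called, and 46.7% of those with a mean of at least 10. The median peak-to-trough difference of the family was 0.22, a 1.17-fold change, and that of all genes with a mean of at least 1 was 0.34. All 22 called genes had their fitted peak in the dark, between ZT13.4 and ZT18.8, with differences between 0.21 and 0.65. Over the whole family, called or not, 76 of 79 fitted peaks were in the dark and 63 lay between ZT14 and ZT18. Of all genes tested, 48.3% had a fitted peak in the dark. The 3 with a peak in the light were Rps12, Rpl22 and Rpl22l1, none of which was called.

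**Figure D2:**
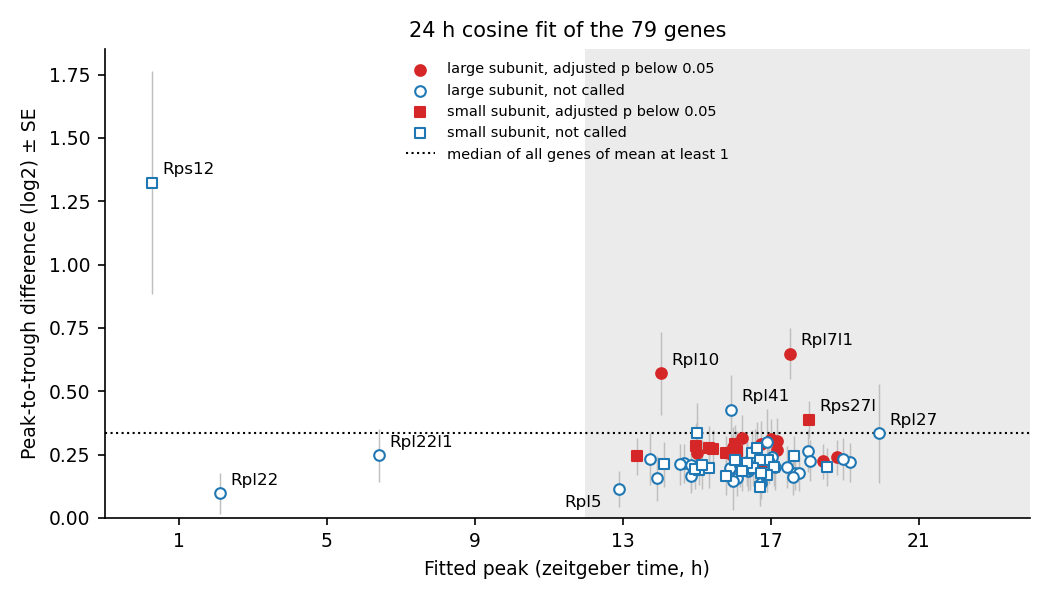
Fitted 24 h peak-to-trough difference (y axis, log2, bars are ± SE) against the fitted peak (x axis, zeitgeber time in h; grey marks the dark phase) of the 79 genes over 18 livers. Filled symbols are the 22 genes with an adjusted P-value below 0.05 in limma, circles the large and squares the small subunit; most genes crowd between ZT14 and ZT18 below the median of all genes of mean at least 1 (dotted, 0.34).

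The calls of the family depended on how the livers are put on a common scale. The deposited columns do not have equal totals. They add up to between 941088 and 1077230, and the livers of ZT17 (1030950 to 1077230) have larger sums than those of ZT5 (941088 to 969019). When each liver was scaled to a total of 1000000 instead, 3 members (3.8%) were called in place of 22, against 36.5% of all genes under that scaling, the median peak-to-trough difference fell to 0.14 and the fitted peak lay in the dark in 72 of 79. The 3 called were Rpl7l1, Rps27l and Rpl22l1, which are the 3 paralogue-like genes of the family. The change between the scalings is that of a common factor per liver, which moved the median of all genes by -0.07 at ZT17 and by 0.06 at ZT5. When livers were centred on their median gene, 35 members were called (44.3%), against 35.8% of all genes. The direction of the family's difference between ZT1 and ZT13 was the same under each of these scalings (median 0.17 in each, but 0.10 and 0.11 as deposited without replicate 1 of ZT1 or of ZT13), while that between ZT5 and ZT17 was 0.19 as deposited, 0.06 with equal totals and 0.23 when centred.

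**Figure D3:**
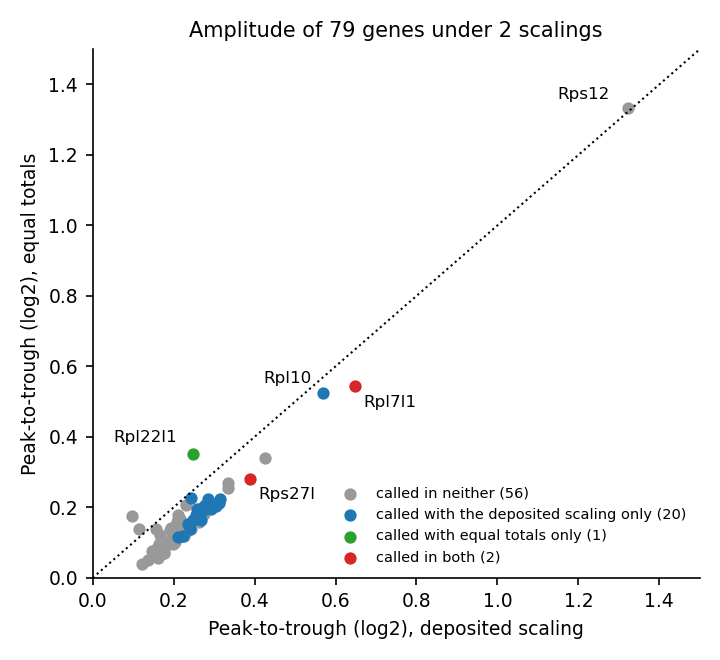
Fitted 24 h peak-to-trough difference of the 79 genes with the deposited scaling (x axis, log2) and with each liver scaled to a total of 1000000 (y axis, log2). Colours give the limma calls and the dotted line marks equal values; nearly all genes lie below the line, and Rpl7l1, Rps27l and Rpl22l1 are the only ones of the 79 called with equal totals.

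Pairs of time points 12 h apart, which share no liver, gave the same direction in most members and few calls. The level was higher at ZT13 than at ZT1 in 73 of 79 genes (median log2 difference 0.17), at ZT17 than at ZT5 in 76 (0.19) and at ZT21 than at ZT9 in 70 (0.10). Single livers carried part of these differences. The first was 69 genes (0.10) without replicate 1 of ZT1 and 74 genes (0.11) without replicate 1 of ZT13. The last was 55 genes (0.04) without replicate 1 of ZT21. With each liver at a total of 1000000, the counts of the 3 pairs were 73, 68 and 63. Of all genes tested, 50.03%, 47.37% and 49.93% were higher at the dark time point on the deposited scaling. For the 801 other protein-coding genes with a transcript under 1000 bases, these shares were 64.04%, 71.29% and 65.04%. The members share livers and scale factors, so the counts are not 79 separate observations. Between ZT1 and ZT13, 1 gene was called as higher, Rpl10, against 6.8% of all genes, and none as lower, against 7.42%. The call of Rpl10 was lost with the near-identical copies described below added, and at a pseudocount of 0.1 in place of 1. Between ZT5 and ZT17, 5 were called as higher, against 9.26%, and none as lower, against 10.5%. Rpl7l1, Rps27l, Rpl26 and Rpl11 were among them. Between ZT9 and ZT21, Rpl7l1 alone was called as higher, against 5.63% of all genes, and none was lower, against 5.07%. At an unadjusted P-value below 0.05, 26, 28 and 6 members passed in these pairs (32.9%, 35.4% and 7.59%), against 28.3%, 33.4% and 25.01% of all genes. An F test in limma over the 6 time points, which assumes no curve, called Rpl7l1, Rps27l and Rpl11, which is 3 of 79 against 26.3% of all genes.

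A 12 h term, tested with limma beside the 24 h term, was called in 0 of 79 genes, against 0.872% of all. It passed at an unadjusted limma P-value below 0.05 in Rpl7l1 and Rps7 (adjusted 0.084 and 0.23), against 12.6% of all genes, and 1 member passed the adjusted threshold when limma's prior for the spread followed the level. The non-parametric rank test JTK called 4 members against 14.0% of all genes, namely Rpl7l1, Rps27l, Rps23 and Rpl26. A cosine with a free period, as in the CircaN approach of the study but with that curve only, called Rpl7l1 and Rps27l, against 11.2% of all genes.

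The smallest 24 h P-value in the family was that of Rpl7l1, a relative of Rpl7 whose yeast counterpart helps to assemble the large subunit (GRCm38 chr17:46773907-46782672, minus strand). Its value was 65.4, 64.8 and 66.3 in the livers of ZT1, 48.4, 51.1 and 48.7 at ZT5, and 48.3, 51.6 and 53.3 at ZT9. It was 78.7, 69.2 and 76.6 at ZT13, 81.0, 78.8 and 83.3 at ZT17, and 67.5, 57.9 and 69.1 at ZT21. All livers of ZT5 and ZT9 were below every other liver, and those of ZT13 and ZT17 were the highest, with replicate 2 of ZT13 level with replicate 3 of ZT21. The peak-to-trough difference was 0.65 ± 0.10 (SE), with a peak at ZT17.5 ± 0.60 h (limma adjusted P = 0.00037), and the difference between ZT5 and ZT17 was 0.70 ± 0.09 (limma adjusted P = 6.4e-05). With equal totals it was 0.54 (limma adjusted P = 0.0012), and it was called whichever liver was left out.

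Its partner Rpl7, a protein of the body of the large subunit, had a smaller difference. Rpl7 was 223, 255 and 242 at ZT1, 245, 237 and 230.3 at ZT5, and 222, 241 and 221 at ZT9. It was 245, 262 and 249.6 at ZT13, 271, 266 and 258 at ZT17, and 266, 242 and 238 at ZT21. All livers of ZT13 and ZT17 were above those of ZT5 and ZT9, by less than 1 unit for the closest livers of ZT13 and ZT5, and ZT1 and ZT21 overlapped with both sets of livers. The fitted difference was 0.18 ± 0.07 (limma adjusted P = 0.10).

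In the ratio of the genes of a pair within a liver, taken on value + 1, the scaling of the liver enters only through the added 1. The log2 ratio of Rpl7l1 to Rpl7 was -2.24 ± 0.06 (SD, n = 3) at ZT5, -2.13 ± 0.09 at ZT9, -1.74 ± 0.15 at ZT13 and -1.70 ± 0.07 at ZT17. Its 24 h peak-to-trough difference was 0.47 ± 0.10 (SE), with a peak at ZT17.5, and a permutation test over the 18 livers gave P = 0.00212 (0.00318 adjusted over the 3 ratios tested). The ratio was higher in each liver of ZT13 and ZT17 than in any of ZT5 and ZT9.

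Rps27l, a copy of Rps27 known as a target of p53, had the next smallest P-value (chr9:66946086-66949516, plus strand). Its value was 112, 104 and 114 at ZT1, 95.7, 101 and 105 at ZT5, and 102, 93.0 and 105 at ZT9. It was 113, 118 and 117 at ZT13, 129, 143 and 127 at ZT17, and 131, 109 and 118 at ZT21. The livers of ZT17 were above all livers of the light phase, and those of ZT21 overlapped with ZT1. The peak-to-trough difference was 0.39 ± 0.07, with a peak at ZT18.0 ± 0.72 h (limma adjusted P = 0.0018, and 0.010 with equal totals). Rps27 itself, a zinc-finger protein of the small subunit, was called with an earlier peak, at ZT13.4 ± 1.2 h (0.24 ± 0.07, limma adjusted P = 0.045, 0.070 with equal totals and 0.068 with the values of its identical copy Rps27rt added). The log2 ratio of Rps27l to Rps27 was 0.70 ± 0.10 (SD, n = 3) at ZT1, 0.33 ± 0.10 at ZT9 and 0.68 ± 0.10 at ZT17. Its 24 h difference was 0.38 ± 0.06 (SE), with a peak at ZT20.5 (permutation P = 0.00016, 0.00048 adjusted over the 3 ratios). The transcripts of the pair aligned with 76.7% identity over 227 bases.

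Rpl22l1, which stands beside Rpl22 as a copy of this RNA-binding protein of the large subunit, ran the other way (chr3:28805436-28807424, plus strand). Its value was 32.8, 33.2 and 31.3 at ZT1, 35.6, 31.9 and 30.5 at ZT5, and 32.3, 38.7 and 33.9 at ZT9. It was 35.4, 27.0 and 30.01 at ZT13, 28.4, 30.9 and 26.4 at ZT17, and 36.8, 28.04 and 24.7 at ZT21. The time points overlapped, with single high livers at ZT13 and ZT21. The fitted peak was at ZT6.4 ± 1.6 h and the difference 0.25 ± 0.10, which was not called (limma adjusted P = 0.16). With equal totals the difference was 0.35 at ZT6.3 and was called (limma adjusted P = 0.030). Rpl22 had the smallest fitted difference of the family, 0.10 ± 0.08 (limma adjusted P = 0.59). The ratio of the pair had a difference of 0.22 ± 0.10, with a peak at ZT7.9, which did not pass the permutation test (P = 0.12, also adjusted over the 3 ratios). Rpl3l, Rpl10l, Rpl39l and Rps4l were not among the rows used.

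**Figure D4:**
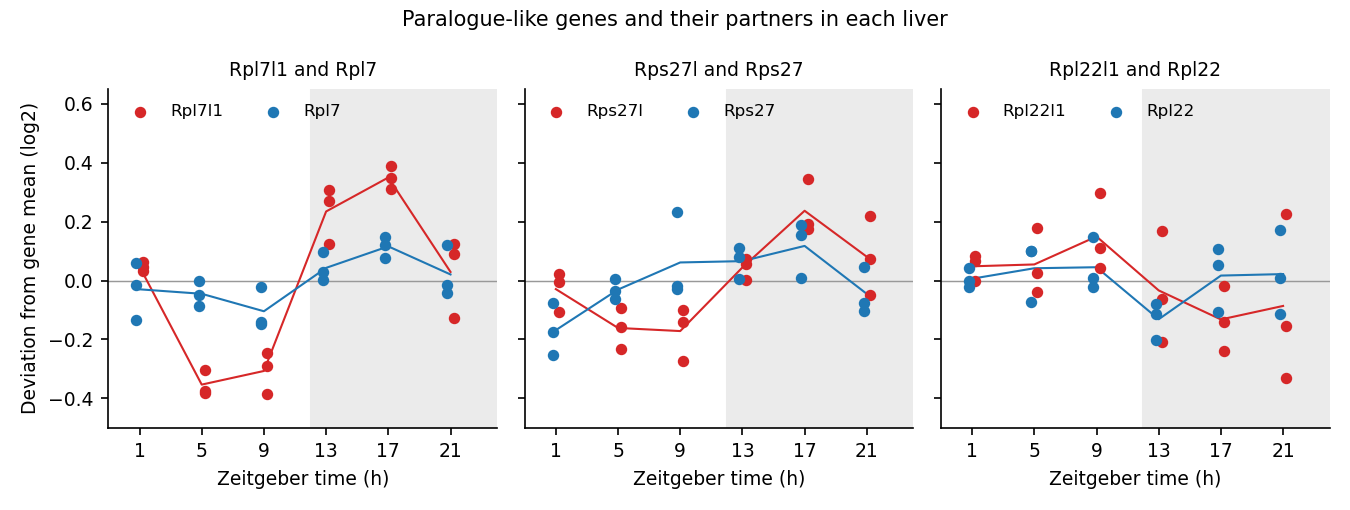
Deviation from the gene's mean (y axis, log2 of value + 1) in each of the 18 livers against zeitgeber time (x axis, h; grey marks the dark phase) for the 3 paralogue-like genes (red) and their partners (blue), with lines through the means of 3 livers. Rpl7l1 and Rps27l separate ZT5 and ZT9 from ZT13 and ZT17 in all livers, and Rpl22l1 is lowest at ZT17 with livers that overlap.

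Among the canonical members, Rpl11 had the smallest P-value. Rpl11 and Rpl5 bind the 5S rRNA and, when free of the ribosome, the p53 regulator Mdm2. Rpl11 was 168, 186 and 199 at ZT1, 180.2, 178 and 180.2 at ZT5, and 164, 174 and 176 at ZT9. It was 225, 207 and 206 at ZT13, 204, 228 and 215 at ZT17, and 217, 189.6 and 187 at ZT21. All livers of ZT13 and ZT17 were above all livers of the light phase. The difference was 0.31 ± 0.08, with a peak at ZT17.0 ± 0.93 h (limma adjusted P = 0.012, and 0.079 with equal totals). Rpl5 was among the 3 genes with the smallest differences, at 0.11 ± 0.07 (limma adjusted P = 0.39), with values from 231 to 284 over all livers. Whether Rpl11 and Rpl5 differed in their rhythm was not tested.

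Rps18, of the head of the small subunit, was called whichever liver was left out, as were Rpl7l1, Rps27l and Rpl11. Rps18 had a difference of 0.29 ± 0.08, with a peak at ZT16.0 (limma adjusted P = 0.018, and 0.077 with equal totals). Its values were 179 to 191 at ZT5 and ZT9, 166 to 201 at ZT1, and 212 to 229.7 at ZT13 and ZT17. Rps13, Rpl24 and Rps23 were also among the 8 smallest P-values, with differences of 0.27, 0.28 and 0.21 and limma adjusted P-values of 0.023, 0.028 and 0.032. These 3 were not called in all of the fits that left out a liver, but in 17, 15 and 15 of 18.

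The proteins of the stalk, which bind elongation factors at the edge of the large subunit, peaked between ZT14.5 and ZT17.2, and of these 3 Rplp1 was called (0.27 ± 0.08, limma adjusted P = 0.036). The differences of Rplp0 and Rplp2 were 0.17 ± 0.07 and 0.21 ± 0.08 (limma adjusted P = 0.14 and 0.12). Rplp1 was called in 7 of 18 fits without a liver. At the exit of the peptide tunnel, Rpl26 and Rpl39 were called among 7 genes, in 9 and 14 of these fits. Neither passed with equal totals (limma adjusted P = 0.22 and 0.19). At the entry of the mRNA none of Rps2, Rps3 and Rps9 was called. None of these 3 groups, with 33.3%, 28.6% and 0% called, was above the 35.3% of all genes. Rps6, the substrate of the S6 kinase, had a difference of 0.19 ± 0.06 (limma adjusted P = 0.060). Its values were 255 to 289 at ZT1, ZT5 and ZT9, 297 to 316 at ZT13 and ZT17, and 273 to 284 at ZT21. Rps27a, made as a fusion with ubiquitin, had a difference of 0.21 ± 0.09 (limma adjusted P = 0.16).

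Rpl13a, Rpl19 and Rpl32 are widely used as reference transcripts in quantitative PCR. Their differences were 0.16 ± 0.07, 0.16 ± 0.07 and 0.27 ± 0.08 (limma adjusted P = 0.20, 0.21 and 0.0502). Over the 18 livers, Rpl13a lay between 279 and 354, Rpl19 between 187 and 233 and Rpl32 between 114 and 158. Rpl32 passed the threshold under some alternatives, such as a filter that kept genes with a mean of at least 1. Rps4x, encoded on the X chromosome, moved little, with a difference of 0.12 ± 0.08. The short protein Rpl41 had one of the largest differences (0.43 ± 0.14, limma adjusted P = 0.053), and its value of 246 in replicate 1 of ZT13 was far above the 117 to 185 of the other livers.

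Rps12 and Rpl10, with the largest fitted differences besides Rpl7l1, have near-identical copies among the rows of the table. Rps12, of the small subunit, had a difference of 1.32 ± 0.44 with a peak in the light, at ZT0.27, unlike most of the family, and was not called (limma adjusted P = 0.065). Without replicate 1 of ZT13 the difference was 0.81, leaving out any other liver gave 1.20 to 1.51, and the gene was called without replicate 2 or 3 of ZT9 or replicate 3 of ZT13. Its value was 58.2, 54.0 and 46.5 at ZT1, 79.5, 49.9 and 58.0 at ZT5, and 21.9, 56.8 and 57.9 at ZT9. It was 6.55, 24.3 and 48.2 at ZT13, 41.9, 59.1 and 41.3 at ZT17, and 62.0, 62.6 and 106 at ZT21. The livers of one time point differed by up to several fold, and ZT9, ZT13 and ZT17 overlapped. Rps12-ps3, a row elsewhere in the genome whose transcript matches that of Rps12 over 400 bases at 100% identity, was high where Rps12 was low. It was 129, 113 and 89.2 at ZT13 and 86.9, 71.8 and 25.5 at ZT21. The sum of both ranged only from 122 to 160 over the 18 livers, a ratio of 1.31, where Rps12 alone ranged over a ratio of 16.2. Fitted to the sum, the difference was 0.14 ± 0.08, with a peak at ZT19.2 (limma adjusted P = 0.32).

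Rpl10, near the peptidyl transferase centre of the large subunit, was called with a difference of 0.57 ± 0.17 and a peak at ZT14.0 (limma adjusted P = 0.033, and 0.060 with equal totals). Rpl10 was called in 12 of 18 fits without a liver. Its value was 28.4, 21.9 and 28.7 at ZT1, 34.8, 31.4 and 37.8 at ZT5, and 34.8, 34.2 and 39.2 at ZT9. It was 62.8, 32.7 and 35.2 at ZT13, 37.1, 47.8 and 44.5 at ZT17, and 39.1, 28.6 and 38.4 at ZT21. The livers of ZT1 were among the lowest, and replicate 1 of ZT13 stood far above the others. Rpl10-ps3, identical over 740 bases, took 86.7% to 94.6% of the reads of the pair, with values from 330.3 to 419. With the copy added the difference was 0.20 ± 0.07 (limma adjusted P = 0.10). The call of Rpl10 thus held for its own row and not for the pair.

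**Figure D5:**
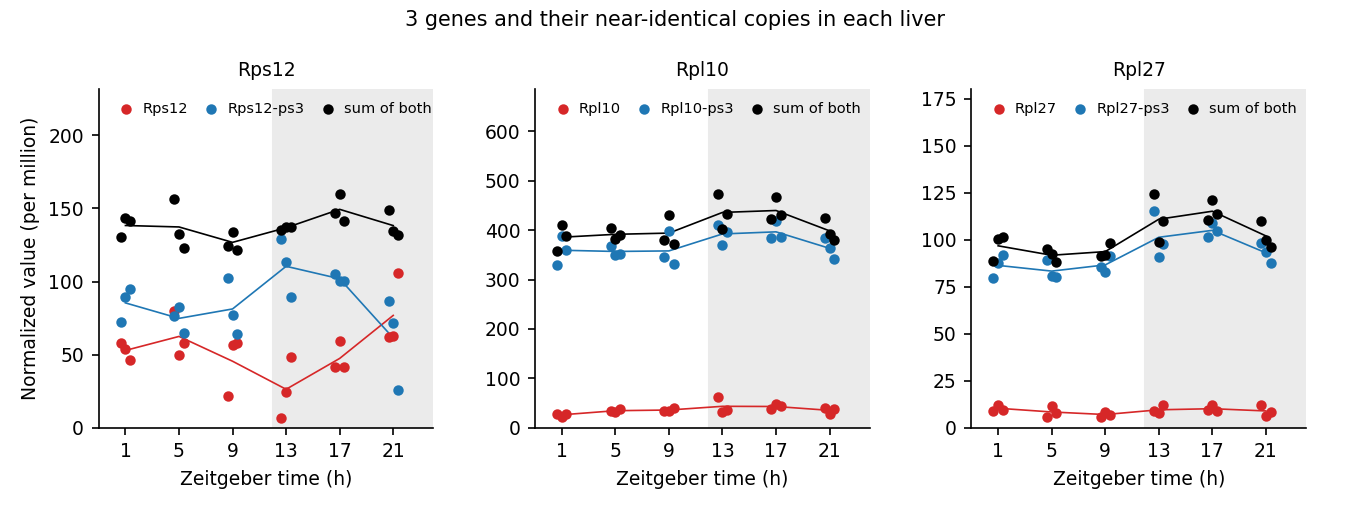
Normalized value (y axis, about reads per 1000000) of Rps12, Rpl10 and Rpl27 (red), of their near-identical copies (blue) and of the sum (black) in each of the 18 livers against zeitgeber time (x axis, h; grey marks the dark phase), with lines through the means of 3 livers. Rps12 and its copy mirror each other and their sum stays between 122 and 160; for Rpl10 and Rpl27 most of the value lies on the copy.

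In all, 14 of the 79 genes had at least 1 such copy outside their own place in the genome, 16 copies in total, defined by an identity of at least 95% over at least 80% of the coding length. Flt3l and Gm28037 also meet this definition for Rpl13a and Rpl24 but overlap these genes in the genome, and were not counted or added. For Rpl27, whose copy Rpl27-ps3 took 87.3% to 93.7% of the pair, the difference was 0.33 ± 0.20 alone (limma adjusted P = 0.36) and 0.32 ± 0.08 with the copy (limma adjusted P = 0.010). For Rpl35 with Gm2000 it was 0.30 ± 0.13 alone and 0.29 ± 0.08 together (limma adjusted P = 0.19 and 0.024). For Rpl21 with BC004004 it was 0.22 alone and 0.33 ± 0.07 together, with a peak at ZT21.9 (limma adjusted P = 0.078 and 0.0039). With all copies added, 23 of 79 were called (29.1%, against 35.3% of all genes) and the peak was in the dark in 77. How the quantification divided reads between a gene and its copy was not tested.

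The members varied together across livers. Over the 78 genes with a mean of at least 10, the median Pearson correlation between pairs of members over the 18 livers was 0.70 (quartiles 0.56 and 0.81), and 94.97% of the 3003 pairs were positive. With the mean of the others, 48 genes correlated at 0.8 or more, and Rps12 (-0.36), Rpl22 (-0.10) and Rpl22l1 (0.01) were the 3 below 0.5. The points share libraries and scale factors, so these values describe the table and carry no test. The genes outside the family whose pattern over the 18 livers was most like that of the family were Atp5o (r = 0.94), Rpsa (0.94), Ndufa9 (0.92), Ndufb10 (0.90), Cox6b1 (0.90), Prdx2 (0.90), Uqcrh (0.89), Bola3 (0.89), Mrpl52 (0.89) and Atp5g1 (0.89), among 12391 genes considered. Rpsa is itself a protein of the small subunit that the symbol rule left out.

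Other short transcripts had medians of the same sign as the family. The median transcript of the 79 genes was 712 bases long and that of genes with a mean of at least 1 was 2674. For 801 other protein-coding genes with a transcript under 1000 bases, the median deviation was -0.08 at ZT5, -0.07 at ZT9, 0.05 at ZT13 and 0.09 at ZT17. For the family it was -0.07, -0.10, 0.11 and 0.12, and for 5196 genes with a transcript of 3000 bases and more it was 0.05, 0.04, -0.01 and -0.05. Of the short genes, 72.2% had a fitted peak in the dark, against 96.2% of the family and 36.3% of the long genes. Replicate 1 of ZT1 was low both in the family (-0.16) and in the short genes (-0.07), and replicate 1 of ZT21 was high in both (0.14 and 0.13). The 33 genes of the mitochondrial genome, led by mt-Co1, had medians of 0.09 at ZT1, -0.13 at ZT5, -0.12 at ZT9, -0.11 at ZT13, 0.17 at ZT17 and 0.09 at ZT21, and 13 of them were called (39.4%, against 35.3% of all genes), each with a peak in the dark. Replicate 1 of ZT13, the highest liver of the family, had the lowest mitochondrial median (-0.37), and without it 14 members were called (17.7%, against 32.7% of all genes). The part of transcript length, mitochondrial reads or RNA quality in the family's pattern was not tested.

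Of the markers of other liver cells, some were called in the Kupffer, endothelial and cholangiocyte lists and none in the stellate, B cell and erythroid lists, beside 35.3% of all genes. The 6 Kupffer cell markers, led by Clec4f, summed to 252, 169.7 and 121 in the livers of ZT1, 283, 208 and 228 at ZT5, 213, 265 and 246 at ZT9, 199, 195 and 263 at ZT13, 177, 107 and 242 at ZT17, and 107, 155 and 162 at ZT21. Of these, 3 were called, with peaks in the light. The endothelial markers, led by Kdr, summed to between 78.5 and 190.4, with 2 of 5 called, both with peaks in the light. Their median deviation was 0.37 at ZT5, -0.17 at ZT17 and -0.26 at ZT21. The stellate markers, led by Dcn, summed to between 150.3 and 269, with none of 5 called. The cholangiocyte markers, led by Sox9, summed to between 5.6 and 15.1, with 3 of 4 called, all with peaks in the dark. The B cell markers, led by Ms4a1, summed to between 1.2 and 5.7, with none of 4 called, and Cd3e and Cd3d were not among the rows used. The erythroid markers, led by Alas2, summed to between 108 and 674, with none of 5 called. The 7 hepatocyte markers, led by Alb, summed to between 82549 and 114189, so the livers hold their labelled tissue, and 3 of them were called. Their mean sum was lowest at ZT9 (85690 ± 2852, SD, n = 3) and highest at ZT17 (106562 ± 6811). The summed value of the family was lowest and highest at the same time points. The part of cell composition in the family's pattern was not tested.

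Of the proteins of the ribosome that the symbol rule left out, all 5 in the table had their fitted peak in the dark. Of these, 2 were called (40%, against 35.3% of all genes). They were Rpl36al (0.39 ± 0.08, peak ZT17.7, limma adjusted P = 0.0032) and Gnb2l1, also called Rack1, which docks kinases on the small subunit (0.21 ± 0.07, peak ZT16.0, limma adjusted P = 0.047). Rpsa had 0.24 ± 0.08 and Fau, made as a fusion with a ubiquitin-like protein, 0.26 ± 0.16, neither of which passed. Among 77 mitochondrial ribosomal proteins, 30 were called (39.0%, near the 35.3% of all genes), 28 of them with a peak in the dark.

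Other messages known to hold a TOP motif, mostly those of translation factors, had peaks spread over the day. Of 16, 4 were called (25%, against 35.3% of all genes), of which Eef1g, a subunit of the elongation factor that delivers tRNA, peaked at ZT16.3 (0.36 ± 0.07, limma adjusted P = 0.0034). The other 3 peaked in the light, Eif4b, a cofactor of the RNA helicase of initiation, at ZT4.6 (0.84 ± 0.09), Pabpc1, the poly(A)-binding protein, at ZT8.0 (0.37 ± 0.07), and Eef2, the translocation factor, at ZT8.8 (0.28 ± 0.09). Fitted peaks were in the dark for 8 of the 16, among them Tpt1 and Btf3, and in the light for Eef1a1 (ZT6.7), none of these 3 being called. The difference in timing between these genes and the family was not itself tested.

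Of 19 factors that make ribosomes and are not parts of them, 10 were called (52.6%, against 35.3% of all genes), 9 with a peak in the dark. The median difference of the 19, called or not, was 0.48, and that of all genes with a mean of at least 1 was 0.34. Nolc1, a nucleolar chaperone, had 1.08 ± 0.18 (peak ZT17.0) and Rrp12, which exports the subunits, 1.19 ± 0.14 (peak ZT15.7). Nop56 and Fbl, of the box C/D particles that methylate rRNA, had 0.79 ± 0.12 and 0.50 ± 0.09, with peaks at ZT15.5 and ZT14.6. The RNA polymerase I subunits Polr1a and Polr1b had 0.58 ± 0.12 and 0.46 ± 0.10 (peaks ZT14.3 and ZT15.6), and Polr1c was not called. Ncl, nucleolin, was called with a peak at ZT10.5. The limma adjusted P-values of these 7 called genes were between 1.7e-05 and 0.018. Rpl7l1, at 0.65, lay in the range of these factors and above every canonical member except Rps12, though the sizes of these factors and of the family were not compared by a test.

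Messages of the mTORC1 pathway that were called mostly had their peak in the light. Of 11, 5 were called (45.5%, against 35.3% of all genes), with Mtor itself at 0.81 ± 0.08 (peak ZT5.6), Tsc1, which restrains mTORC1, at 0.73 ± 0.11 (peak ZT3.5), Eif4ebp2, a repressor of initiation, at 0.57 ± 0.12 (peak ZT7.2) and Rptor at 0.24 ± 0.07 (peak ZT7.0). Larp1, which binds TOP messages, was called with a peak late in the dark, at ZT22.3 (0.45 ± 0.08). These are levels of messages and do not measure the activity of the kinase.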

How the data were processed

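Per the labels and the study's methods, the authors removed adapters with Cutadapt, mapped reads to the GRCm38 transcriptome (Ensembl gene-build 84), estimated counts with RSEM 1.2.20, kept genes with counts in at least 1 sample and normalized with limma. The deposited values are used here as a signal on a linear scale, and their exact scaling is not given in the sources used here. Many genes share the lowest value of a liver, which was read as a constant of 0.5 counts put on a scale per 1000000 reads. This is an inference from the values, and the reads per liver rest on it. Since the values are not whole counts, log2(value + 1) of 14449 genes was fitted with limma 3.58.1 in R 4.3.3, without covariates, and P-values were adjusted over all genes. Fits and rank tests were first tested on simulated data. Ratios of pairs were tested by 100000 permutations over livers (Python 3.11.15, numpy 2.4.6), a test added after the fits had been seen. The tests take each mouse as 1 observation. Those of limma set a difference against a spread between mice that borrows information from all genes. Lengths and places are from GENCODE M21 (the transcript with the longest coding sequence, ties to the shortest, with the longest transcript as an alternative), copies from BLAST 2.17.0.

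The genes named are those set by role (stalk, 5S partners, Rps6, ubiquitin fusions, paralogue-like genes with partners, reference transcripts), the 8 smallest 24 h P-values, the 5 largest and 3 smallest differences, the 3 highest and lowest levels per kilobase and the 10 most alike outside genes. Others are given where a test called few. The members and lists were chosen with earlier results of these data known. MetaCycle and the other CircaN curves were not run. The protein identity of the pairs was not analysed here, and a few genes that meet the naming rule are not reported here.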

Additional observations from a re-analysis of the deposited data

How the results depend on the processing

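The 24 h count of 22 members was 3 with each liver at a total of 1000000 (against 36.5% of all genes) and 3 with totals that left out the family (36.4%). It was 35 with livers centred on their median gene (35.8%) and 37 (46.8%, against 36.8% of all genes) with a prior spread that followed the level. When only genes with a mean of at least 1 were kept, it was 28 (35.4%, against 41.4% of those genes). JTK called 4 (against 14.0%) and the free-period cosine 2 (against 11.2%). At a limma adjusted P-value below 0.01, 2 members passed, and the share of all genes at that threshold is not given here. Leaving out each liver gave 5 to 30, against 31.6% to 35.2% of all genes (5 without replicate 2 of ZT17, 8 without replicate 2 of ZT5, 9 without replicate 1 of ZT1, 10 without replicate 3 of ZT17, 11 without replicate 3 of ZT5, 13 without replicate 3 of ZT9, and 14 without replicates 1 or 2 of ZT9, replicate 1 of ZT13 or replicate 1 of ZT17). The 6-time-point count of 3 was 5 with genes of a mean of at least 1 (32.1% of all genes), 1 with a total of 1000000 (26.7%), 5 when centred (26.6%), 1 with totals without the family (26.6%), 15 with the level-dependent prior (29.2%) and 1 to 4 without a liver (22.5% to 24.9%). The 12 h count of 0 was 1 with that prior (1.22%) and 0 whichever liver was left out. Between ZT1 and ZT13 the count of 1 was 0 at a pseudocount of 0.1 (13.5% of all genes in either direction), 2 with a mean of at least 1 (17.7%), 5 with the prior (16%), 0 with copies added (14.2%) and 0 to 2 without a liver (8.82% to 14.4%). Between ZT5 and ZT17 the count of 5 was 2 with a total of 1000000 (22.6%), 14 when centred (20%), 2 with totals without the family (22.6%), 13 with the prior (21.5%) and 2 to 7 without a liver (13.7% to 20.3%). Between ZT9 and ZT21 the count of 1 was 0 with a total of 1000000 (10.6%), 0 with totals without the family (10.7%), 2 with the prior (12.1%), 2 with copies added (10.7%) and 0 to 1 without a liver (6.69% to 11%). The median peak-to-trough difference of 0.22 was 0.14 with a total of 1000000, 0.14 with totals without the family and 0.20 to 0.25 without a liver.

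The addition of copies was chosen after seeing the data. For the named genes, 758 of the alternative values kept the direction and the side of the threshold, 29 newly passed it and 81 no longer did. Direction here means a fitted peak within 6 h of the reported one. The 758 include genes that were not called and stayed so, such as Rpl22, and these could not lose a call. With equal totals alone, 10 of the 31 named genes no longer passed and 1 newly did, and with JTK 9 no longer passed. Per kilobase, 16 of 31 levels of named genes moved by more than the spread between livers with the longest transcript. The ratios of Rpl7l1 to Rpl7 and of Rps27l to Rps27 passed in all 20 alternatives each, with differences of 0.43 to 0.52 and 0.34 to 0.42, and that of Rpl22l1 to Rpl22 passed without replicate 1 of ZT13 (0.22). The causes of these changes were not tested, except that equal totals differ from the deposited scaling by 1 factor per liver. No paired analysis was possible because replicate numbers of the labels do not link mice of different time points, and each mouse gave 1 liver.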
